A study of Danio rerio with 36 samples.

Results

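The genes described here were at least 4-fold lower in the Müller glia fraction than in the remaining cells of the zebrafish eye at every age from 72 to 192hpf (hours post fertilization). They were chosen from the deposited values by a rule. On the log2 CPM scale (CPM, counts per 1000000 reads in a column), the mean of the 3 C columns had to exceed the mean of the 3 MG columns by at least 2 at 72, 96, 120, and 192hpf, and the C mean itself had to be at least 2 at each of these ages. The rule returned 121 of 31540 genes, of which 117 had a symbol, and 4 identifiers that the rule set aside did not meet it either. In the study, cells of dissociated whole eyes were sorted by GFP and sequenced as RNA at 48, 60, 72, 96, 120, and 192hpf. MG is the GFP fraction and C the non-GFP fraction of the same transgenic fish, Tg(*GFAP:GFP*), and each of the 12 groups has 3 columns. Per the study's methods, embryos were kept in phenylthiourea, which blocks pigment formation. Both fractions therefore share the transgene and this treatment, eyes were pooled at each age, and a cell counts as MG only by GFP driven from the *gfap* promoter.

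MG are the radial glia of the retina, which span its layers, recycle glutamate and visual pigment, and in zebrafish can re-enter the cell cycle to replace lost neurons. They are among the last cells that retinal progenitors produce, after which a zone of dividing progenitors remains at the retinal margin throughout life. Genes of DNA replication and mitosis mark such dividing cells, Delta ligands and proneural factors mark progenitors that make neurons, and collagens and small proteoglycans are made by the connective tissue around the eye, including the cornea and sclera.

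Outside 60hpf MG, the columns held 1311849 to 8889893 reads on genes, and the 60hpf MG columns 63463 to 90846. A floor of 3 reads in the shallowest column of an age was 2.29, 47.3, 0.772, 1.24, 1.02, and 0.710 CPM for the 6 ages in order, and covers counting error only. In 9 of the 12 groups the columns differed from each other by no more than read sampling (chi-square ratio 0.0688 to 1.03, where 1 is sampling alone). Replicates 1 and 2 of these groups differed by less than sampling (0.0688 to 0.160), so they are not separate draws of reads. No source ties the columns to separate batches of fish. The p-values measure the spread between columns, which is technical in such pairs and may be so elsewhere. At 48hpf, the reads of C replicate 3 matched those of MG replicates 1 and 2 (ratios 0.679 and 0.993) and not those of C replicates 1 and 2 (6.76 and 6.77). The reads of 48hpf MG replicate 3 matched the 3 columns of 72hpf MG (0.859 to 0.946) and not the other 48hpf MG columns (151 and 153). Results at 48hpf are therefore given with and without both replicate 3 columns. Without them, each 48hpf group holds 2 columns that differ by no more than read sampling (0.0860 in C and 0.951 in MG). The SE and p-values of that fit then measure the spread between columns of what may be 1 library per group.

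The fractions were checked against markers. *rlbp1a*, which encodes the retinaldehyde-binding protein of MG, stood at 37.6, 1174, 32.2, and 746 CPM in MG at 72, 96, 120, and 192hpf and at 3.34, 7.34, 0.744, and 52.0 CPM in C. The water channel gene *aqp4* stood at 8.63, 49.0, 21.0, and 46.9 CPM in MG and at no more than 1.82 CPM in C. Of the 6 MG markers found, 1, 0, 3, and 0 were lower in MG at these ages, and at 120hpf *gfap* itself was among them, at 0.730 CPM in MG and 2.5 CPM in C. *SLC1A3*, a glutamate transporter gene outside these markers, met the rule and was thus lower in MG at each of these ages. It stood at 9.83, 14.7, 12.8, and 56.0 CPM in C and at 0.901, 3.44, 0.367, and 7.30 CPM in MG. Its MG level lay near the floor of 0.772 CPM at 72hpf and under the floor of 1.02 CPM at 120hpf. MG also held photoreceptor RNA, at levels that differed by age. The rod transducin gene *gnat1* stood at 2427 CPM in MG and 458 CPM in C at 96hpf. The summed level of the 6 rod and cone markers was 3357, 71214, 1429, and 66781 CPM in MG from 72 to 192hpf, against 429, 10641, 2315, and 18154 CPM in C, so that it was higher in MG at 72, 96, and 192hpf and lower at 120hpf. At 96 and 192hpf *rho* alone stood at 59963 and 54853 CPM in MG and at 8740 and 16099 CPM in C. Of the 6 markers, *pde6c* stood at 0 CPM in every group. The number lower in MG was 2, 1, 4, and 0 at these ages, with *crx* among them at 72, 96, and 120hpf.

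The share of all reads that fell on the 121 genes summarises their course. It was 1.84 to 2.0% in the 3 columns of 48hpf C and 1.99 and 2.0% in 48hpf MG replicates 1 and 2, but 0.0335% in 48hpf MG replicate 3. It was 0.0336 to 0.0340% in 72hpf MG against 0.421 to 0.426% in C, and 0.134 to 0.137% in 192hpf MG against 2.05 to 2.07% in C. The plot of column medians shows the same order, with 48hpf MG replicates 1 and 2 next to 48hpf C and replicate 3 next to 72hpf MG.

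**Figure D1:**
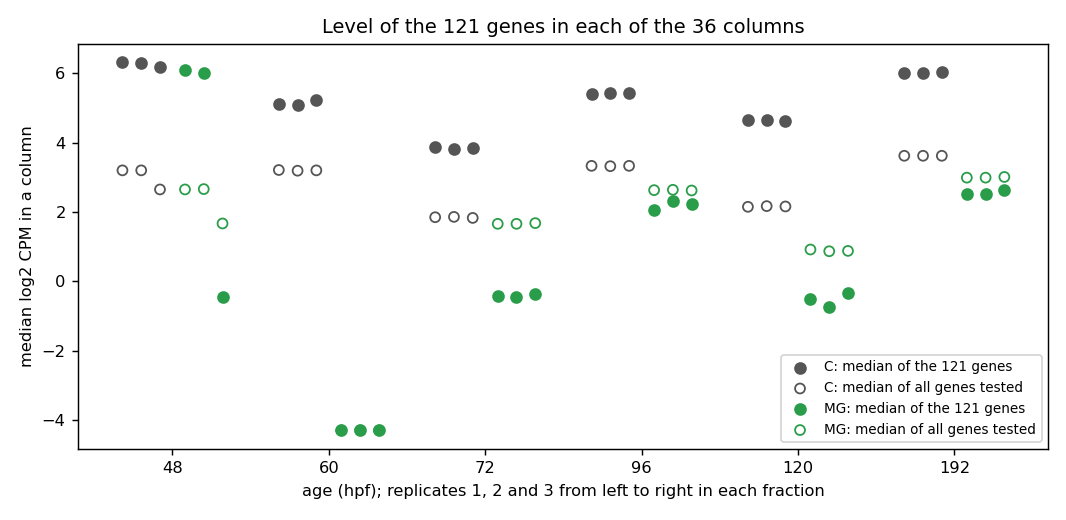
Median log2 CPM of the 121 genes (filled) and of all 18978 genes tested (open) in each of the 36 columns, by age in hpf, for C (grey) and MG (green). The median of the 121 genes is 6.08 and 6.01 in 48hpf MG replicates 1 and 2, -0.45 in replicate 3, and -0.45 to -0.35 in 72hpf MG. In 60hpf MG both medians lie at -4.29, the value of 0 reads.

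At the 4 ages that chose the genes, the values are a description and carry no test. The median gene had 4.23, 3.40, 5.09, and 3.21 log2 units more in C than in MG from 72 to 192hpf, while the median of all genes tested was -0.00, -0.78, -0.57, and -0.39 for MG minus C. Many of the MG levels lay under the floor, namely those of 60, 20, 72, and 8 genes in the same order. With levels under the floor set to it, the ratio of C to MG means had a median of 11.2-fold, 8.99-fold, 14.8-fold, and 9.31-fold, which is no bound. In bulk samples, fewer cells of a type and less RNA per cell cannot be told apart.

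The threshold was close for some genes. Just inside it stood *gapdh*, *vit*, and *fen1*, which passed by 0.002, 0.002, and 0.004 log2 units. Just outside it stood *pold2* and *FZD7*, which missed by 0.004, and *spc25* and *pim2*, which missed by 0.006. At a difference of at least 1.5 the rule returned 206 genes, and at a difference of at least 3 it returned 38. Symbols in capitals are those of the tables at hand and do not say which zebrafish paralog is meant, and *RRM2* stands for 2 identifiers, ENSDARG00000020711 and ENSDARG00000078069. The values of *si:dkey-31n5.4* equalled those of *col1a1a* in the median column (difference 0.0) and those of *si:ch211-123o7.6* differed from *zgc:110540* by 0.051 log2 units, so these pairs may share reads.

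**Figure D2:**
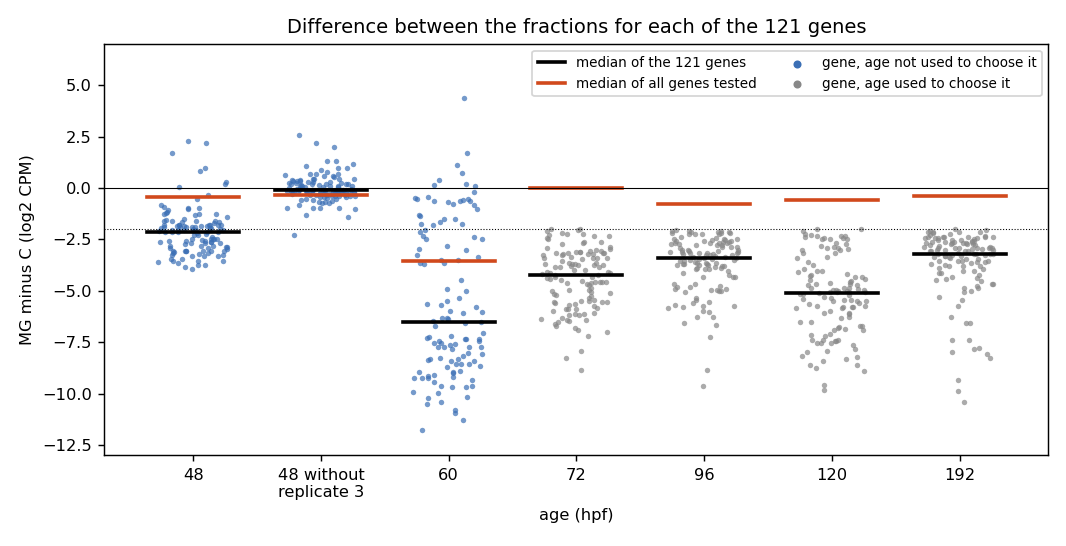
MG minus C (log2 CPM) of each of the 121 genes at each age, with 48hpf shown with all columns and without both replicate 3 columns. Ages that chose the genes are grey and the others blue, bars are the medians of the 121 genes (black) and of all genes tested (orange), and the dotted line marks the difference that the rule required. Without the replicate 3 columns the 48hpf median is -0.12, and at 60hpf the medians are -6.52 and -3.57.

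By role, assigned after the list was known, the largest group was the cell cycle, with 26 genes of DNA replication and S phase and 21 of mitosis and chromosome segregation. A further 16 genes encoded or bound extracellular matrix, 11 were developmental regulators, 6 acted in DNA repair and methylation, 4 were epithelial, and 1 was a globin. Of the rest, 20 had other annotations and 16 were given no role.

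The replication genes include *ccnd1* (cyclin D1, which drives entry into S phase). Its CPM in C were 741, 733, and 643 at 48hpf and 192, 194, and 191 at 60hpf. In MG they were 625, 630, and 21.2 at 48hpf, and 84.8, 110, and 88.1 at 60hpf. C therefore stood above every MG column at both ages, narrowly in 48hpf MG replicates 1 and 2. At 120hpf *ccnd1* stood at 1237 to 1246 CPM in C and 11.4 to 12.1 CPM in MG, 105-fold apart, the widest separation of this gene.

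The Mcm complex is the helicase that opens DNA at replication forks, and 4 of its subunits were in the list. *mcm3* stood at 362, 364, and 281 CPM in 48hpf C and at 295, 314, and 0.362 CPM in 48hpf MG. At 72hpf its level in C was 11.3 CPM and in MG 0.190 CPM, under the floor, so that MG was at least 14.6-fold lower. At 192hpf the means were 117 and 9.63 CPM. *mcm2*, *mcm4*, and *mcm7* had 240 to 487 CPM in 48hpf C, 21.9 to 41.2 CPM in 72hpf C, and 0.552 to 0.800 CPM in 72hpf MG.

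The genes that supply and polymerise nucleotides followed. *rrm1* (the large subunit of ribonucleotide reductase) stood at 83.0, 98.2, 96.2, and 99.7 CPM in C from 72 to 192hpf and at 2.63, 14.4, 0.984, and 12.7 CPM in MG. *RRM2* (the small subunit, ENSDARG00000020711) stood at 825 CPM in 72hpf C and 80.0 CPM in 72hpf MG. *pold1* (the catalytic subunit of DNA polymerase delta) stood at 9.08 CPM in 72hpf C and 0.324 CPM in 72hpf MG. *tyms* (thymidylate synthase) was low throughout, at 4.74 to 11.5 CPM in C. *ccne1* (cyclin E1) was higher in C at 72 and 120hpf (39.1 and 54.6 CPM) than at 96 and 192hpf (7.75 and 16.6 CPM). Of the 47 cell cycle genes, 39 had their highest C level at 48hpf, both with all columns and without both 48hpf replicate 3 columns. Over all 121 genes this held for 66, or 54.5%, against 18.8% of all genes tested.

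Among the mitotic genes, *cdk1* (the kinase that drives entry into mitosis) stood at 241, 243, and 208 CPM in 48hpf C and at 211, 207, and 0.340 CPM in 48hpf MG. In MG it then stood at 0 CPM in all columns at 60hpf and at 0.697, 0.797, and 1.01 CPM at 72hpf, and in 96hpf and 192hpf MG at 16.9 and 21.7 CPM. Its level in C at the last of these ages was 120 CPM, so that the gap was narrower (5.54-fold) than at 72hpf (35.6-fold). The 72hpf MG mean of *cdk1*, 0.835 CPM, lay near the floor of 0.772 CPM. *ncaph* and *ncaph2*, subunits of the condensin complexes that compact chromosomes, stood at 63.9 and 35.3 CPM in 48hpf C. In 120hpf MG *ncaph* was at 0.0482 CPM and *ncaph2* at 0 CPM in all columns. *cenpf*, a kinetochore protein gene, stood at 13 CPM in 72hpf C and 2.69 CPM in 72hpf MG, the smallest gap of the 4 at this age.

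The 6 genes of DNA repair and methylation were 3.40 to 4.98 log2 units lower in MG at 72hpf and 2.06 to 4.66 at 192hpf. They include the de novo methyltransferase genes *dnmt3bb.2* and *dnmt3bb.3*, which are paralogs that may share reads.

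The developmental regulators include *atoh7*, the proneural factor needed for retinal ganglion cells. Its CPM were 144, 143, and 236 in 48hpf C and 227, 225, and 0 in 48hpf MG. C replicate 3 stood with MG replicates 1 and 2, and MG replicate 3 stood apart from both. At 72hpf it stood at 3.82, 3.06, and 6.43 CPM in C and had no read in MG. At 192hpf it stood at 65.7 to 67.3 CPM in C with 8.68 to 9.46 CPM in MG. *dlc*, which encodes a Delta ligand of Notch, stood at 91.1 CPM in 48hpf C and, unlike *atoh7* (4.51 CPM), at 78.5 CPM in 120hpf C, with 1.42 CPM in 120hpf MG.

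Of the other regulators, *emx2*, a homeobox gene, had 55.4, 52.6, and 21.8 CPM in 48hpf C and 18.7, 21.7, and 0.566 CPM in 48hpf MG. Here C replicates 1 and 2 stood above all other 48hpf columns. *foxc1b*, a forkhead gene of the mesenchyme around the eye, stood at 6.82 to 20.1 CPM in C from 72hpf on and at no more than 0.956 CPM in MG (means of 3 columns). *vsx1*, a homeobox gene of bipolar neurons, stood at 83.5, 83.1, and 110 CPM in 48hpf C and at 2448, 2444, and 2477 CPM in 60hpf C. In MG it was at 182 to 209 CPM at 60hpf, and from 72 to 192hpf it went through 157, 2782, 40.5, and 556 CPM in C.

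Such alternation between ages was common in C. At both 96 and 192hpf, 75 of the 121 genes (62.0%) stood above their levels at both 72 and 120hpf, and so did 56.8% of all genes tested. In MG the same held for 85 of the 121 genes (70.2%), against 43.7% of all genes tested. These levels entered the rule, and in MG 60 and 72 genes lay under the floor at 72 and 120hpf, against 20 and 8 at 96 and 192hpf. The shares are therefore a description. TMM factors, a scaling that the values do not hold, were 0.6215 to 0.7788 at 72 and 120hpf and 0.9392 to 1.4353 at 96 and 192hpf. Their part was not tested.

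The 16 matrix genes had median differences of -4.50, -5.16, -5.78, and -4.69 log2 units for MG minus C from 72 to 192hpf. *tgfbi*, a secreted protein gene known from the cornea, had 1149, 1143, and 1555 CPM in 48hpf C and 1553, 1546, and 0.227 CPM in 48hpf MG. It stood at 70.0 CPM in 60hpf C and had no read in 60hpf MG. At 192hpf it was at 195, 195, and 198 CPM in C and 1.17, 0.710, and 0.445 CPM in MG, which is 253-fold lower. This MG mean, 0.776 CPM, lay near the floor of 0.710 CPM. The small leucine-rich proteoglycan genes *dcn* and *lum*, which space collagen fibrils in the cornea and sclera, stood at 97.5-fold and 59.0-fold lower levels in MG at 96hpf. Their MG means, 1.77 and 1.36 CPM, lay near the floor of 1.24 CPM.

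Of the 5 collagen genes, *col1a1a* (type I, the main fibril of cornea and sclera) had 36.3, 239, 30.8, and 255 CPM in C from 72 to 192hpf and 0.388, 3.0, 6.14, and 1.45 CPM in MG. *COL2A1* (type II, of cartilage and vitreous) reached 403 CPM and *col5a1* 712 CPM in C, at 96 and 120hpf, respectively. *matn4* (matrilin) had 331 CPM in 96hpf C and 6.06 CPM in 96hpf MG. *col5a1* (type V) was 4.59-fold, 28.3-fold, 53.2-fold, and 9.78-fold lower in MG from 72 to 192hpf. Connective tissue markers overlap the matrix genes, so at these ages their shared direction is in part given by the rule. The 5 markers, 3 of them in the list, summed to 150, 918, 259, and 1189 CPM in C and to 28.7, 15.5, 39.2, and 18.3 CPM in MG from 72 to 192hpf. Of the 5, 4 were lower in MG at 72hpf and all 5 at the later ages, and *lum* was at 0 in 72hpf MG. The exception at 72hpf was *pdgfra*, not in the list, at 11.2 CPM in C and 26.7 CPM in MG. Their part in the result was not tested.

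Of the epithelial genes, *krt8*, a keratin gene of simple epithelia, had 34.3, 225, 276, and 500 CPM in C from 72 to 192hpf and 2.55, 16.6, 11, and 16.9 CPM in MG. *scinla*, a gelsolin-family gene, stood at 3.04, 2.29, and 4.35 CPM in 48hpf C and 7.18, 6.23, and 3.62 CPM in 48hpf MG. From 72 to 192hpf it had 12.3, 462, 1839, and 6660 CPM in C and 2.59, 15, 11.1, and 69.7 CPM in MG. Surface epithelium markers behaved differently from *krt8* at 120hpf. The 5 markers, none of them in the list, summed to 191, 3582, 95.6, and 47925 CPM in C and to 24.0, 57.3, 137, and 190 CPM in MG from 72 to 192hpf, and 3 of the 5 were lower in MG at 120hpf. *epcam* was at 0 in 72hpf MG, and the part of these cells in the result was not tested.

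*hbae3*, an alpha globin gene of red blood cells, had no read in MG at 72 and 120hpf and 0, 0, and 0.222 CPM at 192hpf. In C it stood at 12.2, 8.74, and 119 CPM at these ages, so that MG was at least 168-fold lower at the last. At 96hpf MG did hold its reads above the floor, at 5.74, 5.77, and 7.27 CPM, against 295 CPM in C. The red blood cell gene *alas2*, not in the list, was at 0.384, 12.3, 3.43, and 8.71 CPM in C and 0.0387, 0.137, 0, and 0.194 CPM in MG from 72 to 192hpf. The part of blood in the C fraction was not tested.

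Among the other genes, *FOS*, the immediate early gene, had high levels in both fractions, 51.8 to 473 CPM in C and 10.4 to 110 CPM in MG from 72hpf on. *si:dkey-183i3.5*, which has no described role here, stood at 5.24, 40.6, and 5.75 CPM in C and then at 857 CPM at 192hpf, with 1.40 CPM in MG. *gapdh*, a glycolytic enzyme gene, likewise reached 410 CPM in 192hpf C, with 51.2 CPM in MG. *nrn1lb*, a neuritin-like gene, had 560 CPM in 96hpf C and 20.2 CPM in 96hpf MG.

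**Figure D3:**
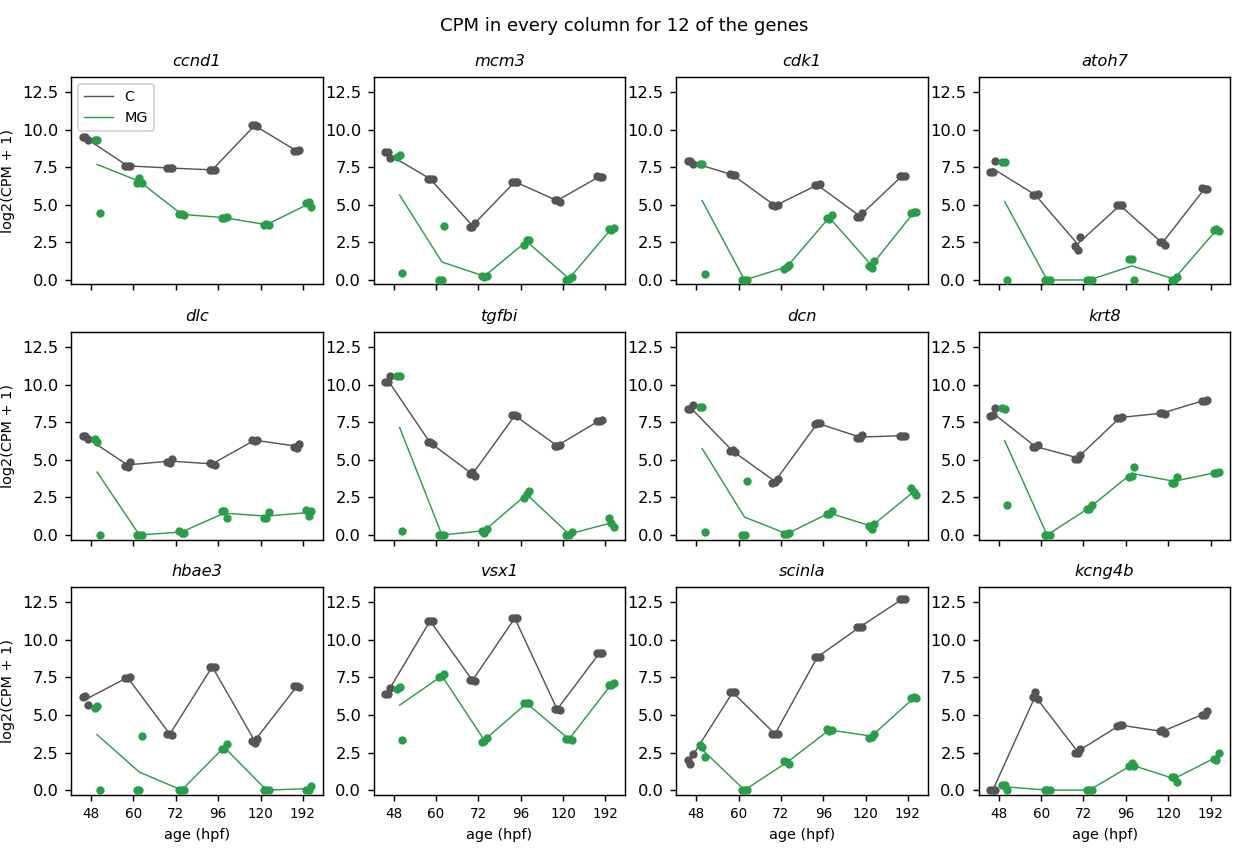
log2(CPM + 1) in every column for 12 of the genes by age in hpf, for C (grey) and MG (green), with lines through the means of 3 columns. In *ccnd1*, *mcm3*, *cdk1*, *atoh7*, *dlc*, *tgfbi*, *dcn*, *krt8*, *hbae3*, and *vsx1* the third 48hpf MG column lies far below the other 2 (*tgfbi* 0.227 against 1553 and 1546 CPM), while *kcng4b* has no read in 48hpf C.

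Whether the gap was present at 48hpf, before the ages that chose the genes, was tested with limma on all genes. With all columns, 113 of the 121 genes (93.4%) were lower in MG, against 64.9% of all genes tested. The median was -2.12 against -0.46 over all genes tested. Of the 121 genes, 7 (5.79%) were called lower and 4 (3.31%) higher at an adjusted p under 0.05, against backgrounds of 9.63 and 4.35% of 18978 genes. With TMM scaling limma called 0 of the 121 genes lower, against 2.5% of all genes, both at an adjusted p under 0.05. At an unadjusted p under 0.05, 39 of the 121 were lower, a count without a share of all genes to set it against. Both shares with all columns were below those of all genes. The lower genes were *dtl*, *emx2*, *gapdh*, *hirip3*, *si:dkey-98l9.2*, *tspan4b*, and *si:dkey-183i3.5*, the last of which was under the floor in both fractions.

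Without both replicate 3 columns, 73 of the 121 genes (60.3%) were lower in MG and 48 higher, against 65.9% of all genes tested lower. The median was -0.12 against -0.34 over all genes tested. Then 9 genes (7.44%) were called lower and 10 (8.26%) higher, against backgrounds of 23.2 and 9.93% of 18912 genes. In the first 2 columns of each fraction the 121 genes were therefore not lower in MG than genes at large. The 16 matrix genes had a median of -0.07 without replicate 3 and -2.84 with it, and the 26 replication genes 0.15 and -2.22. Since 48hpf MG replicate 3 matches the 72hpf MG columns that chose the genes, its low values are not independent of the rule.

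A few single genes had a difference at 48hpf in both fits. The fit without both replicate 3 columns has 2 columns per fraction at 48hpf, which may be 1 library. The fit with all columns holds MG replicate 3, which matches columns that chose the genes. It also holds C replicate 3, which matches MG replicates 1 and 2. A lower value in that fit is thus in part given by the rule, and the 2 fits share columns, so they are not separate tests. *emx2* was 2.66 ± 0.78 (SE) log2 units lower in MG (limma, adjusted p = 0.0276), and without both replicate 3 columns 1.42 ± 0.48 lower (adjusted p = 0.0240). *gapdh* was 2.05 ± 0.59 lower (adjusted p = 0.0258) and then 1.3 ± 0.22 lower (adjusted p = 4.17e-05). *scinla* was 0.80 ± 0.20 higher in MG (adjusted p = 0.0131) and then 1.33 ± 0.11 higher (adjusted p = 7.48e-10), the opposite of its direction from 72hpf on. Its 48hpf C mean was 3.23 CPM, near the floor of 2.29 CPM, so this difference rests on few reads in C. The other genes called higher at 48hpf, *dnaaf1*, *kcng4b*, and ENSDARG00000079569, were under the floor of 2.29 CPM in both fractions. Only without both replicate 3 columns did *vsx1* pass, 0.41 ± 0.07 higher in MG (adjusted p = 4.26e-05). *RRM2* (ENSDARG00000078069) then passed too, 0.76 ± 0.13 higher (adjusted p = 5.30e-05), and *ccnd1* by a small margin, 0.23 ± 0.09 lower (adjusted p = 0.0494).

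At 60hpf, the depth of MG limits what can be said. With limma, 89 of the 121 genes (73.6%) were called lower in MG and 2 higher, against backgrounds of 70.8 and 6.19%, so that the lower share is close to that of all genes. The median was -6.52 against -3.57 over all genes tested. In C, 49 of the 121 genes reached the floor of 47.3 CPM, and 30 of these 49 (61.2%) were called lower, against 66.1% of the 4109 genes tested that reached it. With values under the floor set to it, 19 of the 49 (38.8%) were at least 2-fold lower in MG, against 31.5% of the 4109. No read was found in any 60hpf MG column for 10 of the 49 (20.4%), against 6.86% of the 4109. *vsx1* stood at 2444 to 2477 CPM in C and 182 to 209 CPM in MG (3.67 ± 0.48 log2 units lower, limma adjusted p = 1.20e-07). *krt8* (56.8 to 62.5 CPM in C), *scinla* (89.5 to 90.5 CPM), and *cdk1* (123 to 129 CPM) had no read in MG. *col5a1* did not separate, at 58.9, 56.6, and 57.4 CPM in C and 60.6, 78.8, and 55.0 CPM in MG. *dnaaf1* had 72.1, 70.9, and 68.8 CPM in C and 121, 110, and 121 CPM in MG, and its difference of 0.73 ± 0.63 did not pass (adjusted p = 0.296), though it did without both 48hpf replicate 3 columns (adjusted p = 0.0136). The 2 genes called higher, *dtl* and *pigr*, had 33.6 and 20.3 CPM in MG, under the floor.

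The level of the genes in C between 48 and 60hpf was compared next, in groups that the rule did not use but that share their C columns with the comparisons above. At 60hpf, 102 of the 121 genes (84.3%) were lower in C than at 48hpf, against 42.1% of all genes tested, and the median was -1.27 against 0.24. With all columns in the fit, 11 genes (9.09%) were called lower and 9 (7.44%) higher, against backgrounds of 10.9 and 19.7%. Without both 48hpf replicate 3 columns, 56 genes (46.3%) were called lower and 12 (9.92%) higher, against 22.1 and 26.4%, and the median was -1.37 against 0.08. In that fit the columns of 48hpf C (ratio 0.0860) and of 60hpf C (0.137 to 0.974) differ by no more than read sampling. Each age may thus be 1 library, and the SE, p-values, and calls measure the spread between columns, not between batches of fish. With only the columns of 48hpf C and 60hpf C in the fit, 96 were called lower and 14 higher, against 19.6 and 28.6%. The median with only these columns was -1.27, the same as with all columns because both fits use the same group means. Only the fit without both replicate 3 columns could give another median. The number of calls depended on the columns that set the spread.

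By role and without both replicate 3 columns, the lower calls were 16 of 26 replication genes, 11 of 21 mitotic genes, 7 of 16 matrix genes, and 6 of 11 regulators. They were also 3 of 6 genes of DNA repair and methylation, 2 of 4 epithelial genes, 9 of 20 with other annotations, and 2 of 16 with no role. The share over all genes tested was 22.1%, and the roles were assigned after the values were seen. *ccnd1* was 1.94 ± 0.08 log2 units lower at 60hpf (limma adjusted p = 4.14e-16), and 1.87 ± 0.64 lower with all columns (adjusted p = 0.0276). *tnn*, which encodes tenascin N, went from 475, 483, and 422 CPM in 48hpf C to 15.9, 15.4, and 16.5 CPM in 60hpf C. With all columns it was 4.85 ± 1.27 log2 units lower (limma adjusted p = 0.00399). *emx2* was at 2.52, 2.81, and 2.95 CPM in 60hpf C, 3.83 ± 0.78 lower than at 48hpf with all columns (limma adjusted p = 3.72e-04). *tgfbi* went from 1283 to 70.0 CPM, a difference of -4.18 ± 1.66 log2 units that missed the threshold with all columns (adjusted p = 0.0568), and was 4.03 ± 0.40 lower without both replicate 3 columns (adjusted p = 6.03e-09). Over the same ages the 5 connective tissue markers went from 1567 to 260 CPM in C and the 5 surface epithelium markers from 4065 to 323 CPM, and their part in the result was not tested.

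A small set went the other way between 48 and 60hpf. *vsx1* rose 26.6-fold in C (4.75 ± 0.48 log2 units with all columns, limma adjusted p = 1.14e-08). *scinla* rose 27.9-fold, from 3.23 to 90.1 CPM (4.83 ± 0.20 with all columns, limma adjusted p = 3.18e-16). *sebox*, a homeobox gene, had no read in 48hpf C and 18.5, 18.9, and 19.8 CPM at 60hpf, at least 8.34-fold higher. *kcng4b*, a potassium channel subunit gene, likewise went from no read to 71.9, 90.5, and 64.5 CPM, at least 33.1-fold higher. *dnaaf1*, a cilium assembly factor gene, rose at least 30.9-fold and *nrn1lb* at least 79.0-fold, and all 4 were called higher in both fits. *SLC43A3*, a solute carrier gene, rose 1.99-fold, from 5.46 to 10.9 CPM. Neither the replication nor the matrix group held a gene that was called higher.

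**Figure D4:**
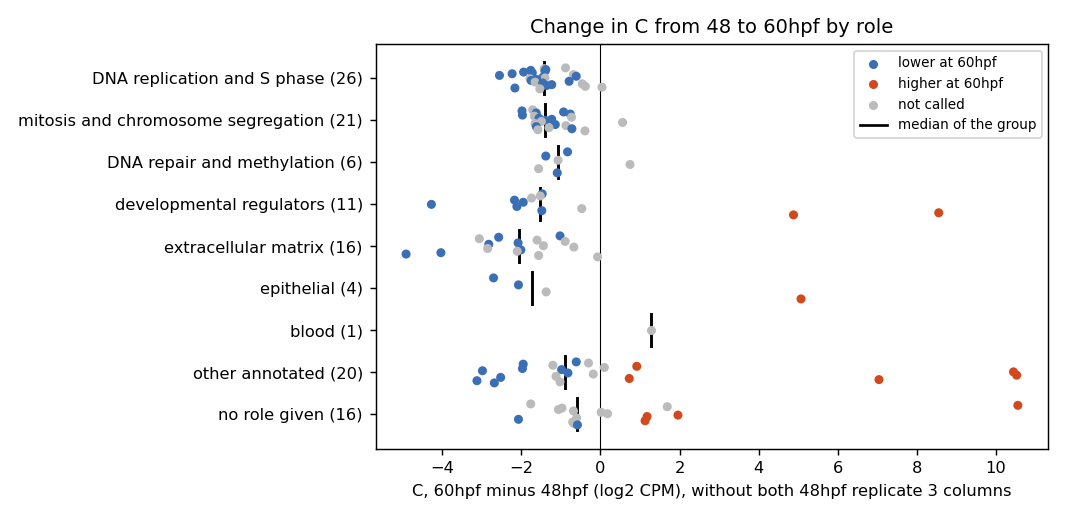
C at 60hpf minus C at 48hpf (log2 CPM) of each of the 121 genes by role, without both 48hpf replicate 3 columns, with the number of genes in each group in brackets and the group median as a bar. Blue genes were called lower (56) and orange genes higher (12) by limma at an adjusted p under 0.05, and the group medians of the cell cycle are -1.44 and -1.39.

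The genes of the list are part of wider gene groups, which were counted over lists not drawn by the rule. These lists were chosen with earlier results of these data known, and their counts from 72 to 192hpf are a description. Of the 52 cell cycle genes tested, 15 are in the list. Over all 52, 3 were lower and 0 higher in MG at 48hpf (median -1.45, backgrounds of 9.63 and 4.35%), and without both replicate 3 columns 5 were lower and 2 higher (median -0.07, backgrounds of 23.2 and 9.93%). In C, 11 of the 52 were lower and 1 higher at 60hpf than at 48hpf (median -1.37, backgrounds of 10.9 and 19.7%). At 60hpf 37 of the 52 were lower in MG and 0 higher, against backgrounds of 70.8 and 6.19%, at the depth described above. Without the 15, the 37 other cell cycle genes had medians of -1.48, -2.26, -3.95, and -2.01 for MG minus C from 72 to 192hpf. Of these 37, 15, 20, 24, and 20 were lower and 5, 0, 1, and 0 higher, against backgrounds of 23.5, 29.3, 37.5, and 20.5% lower and 23.3, 6.62, 20, and 6.13% higher over all genes tested. The 15 other matrix genes of 21 tested had medians of -1.20, -3.30, -1.49, and -3.63, with 5, 9, 7, and 11 lower and 0, 1, 0, and 0 higher.

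The plot of summed lists gives the levels. The cell cycle list summed to 8701 CPM in 48hpf C and 3305, 2701, 2456, 4336, and 3180 CPM in C thereafter. In MG it summed to 6564 CPM at 48hpf, replicate 3 included, and to 948, 1196, 418, 672, and 573 CPM at the later ages. The matrix list summed to 356 to 4402 CPM in C from 72hpf on and 68.2 to 1168 CPM in MG. The surface epithelium list had the lower sum in MG at 72, 96, and 192hpf, but stood at 514 CPM in MG and 446 CPM in C at 120hpf. The sum of the glia list went the other way, with 2741, 16113, 3297, and 12661 CPM in MG and 722, 2720, 1744, and 3527 CPM in C. At 72 and 120hpf this sum lay near the level of the MG marker *glula* alone, 2499 and 3161 CPM in MG. The MG marker *fabp7a* was lower in MG at 120hpf, at 9.57 CPM against 86.2 CPM in C.

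**Figure D5:**
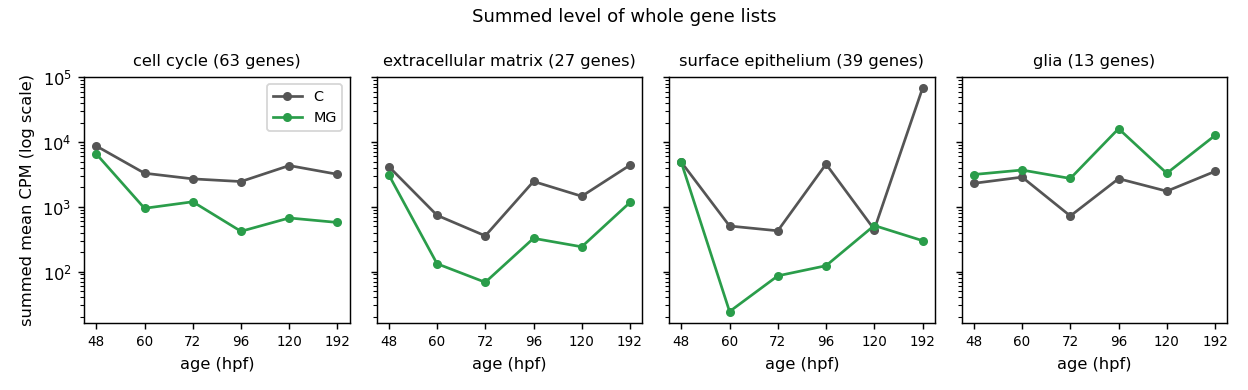
Summed mean CPM (log scale) of whole gene lists in C (grey) and MG (green) by age in hpf, with the number of genes found in brackets. The cell cycle list lies at 418 to 1196 CPM in MG and 2456 to 4336 CPM in C from 72hpf on, and the glia list lies higher in MG than in C at all 6 ages.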

How the data were processed

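RNA from sorted MG and C cells was amplified and sequenced in 36 columns, 12 groups of 3. The authors trimmed the reads with Trimmomatic, aligned them with HISAT2, and counted them per Ensembl gene. The genome build differs between the study's methods and the submitters' processing notes, so no coordinates are given. The deposited values are log2 CPM for 31540 genes, with no TMM factor, made after adding a prior of 0.25 reads scaled to the library. The lowest values fall on steps of 0.01 read (tolerance 0.0005), so the underlying counts are not whole reads, and no count test was run. Library totals were recovered from those steps.

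Genes that reached 1 CPM in 3 or more columns were tested with limma 3.58.1 (R 4.3.3, trended eBayes) in 1 fit over the 12 groups, with Benjamini-Hochberg adjustment over all genes tested. Summaries used Python 3.11.15 and the limma code was tested on simulated data. For the 121 genes, only MG minus C at 48hpf and at 60hpf and C at 60hpf minus 48hpf were tested, and these comparisons share C columns. The alternatives were other filters, CPM plus 1, TMM and quantile scaling, no trend, only the columns compared, a replicate block, each replicate left out, both 48hpf replicate 3 columns left out, and columns joined into libraries with a 2-fold difference in place of a test.

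The genes and lists were chosen with earlier results of these data known. Genes with a symbol were named if among the 10 with the highest mean CPM in C from 72 to 192hpf, in a gene list, among the 5 lowest or 5 highest at 48hpf or in C at 60hpf minus 48hpf, or among the 3 nearest the threshold on either side. *pim2*, other genes outside this rule, and the role groups were chosen after their values were seen. Of the 117 symbols, 14 came from the study's own tables.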

Additional observations from a re-analysis of the deposited data

Results flagged for a closer look

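For 24 of the named genes, MG minus C at 60hpf differed from MG minus C at 48hpf in limma's interaction test at an adjusted p under 0.05, each time toward a lower value at 60hpf. Among all 121 genes 64 (52.9%) had such a difference toward lower and 3 toward higher. Of all 18978 genes tested, 10823 (57.0%) had one toward lower and 1201 toward higher, so that the share toward lower is close to the background. The depth of 60hpf MG (63463 to 90846 reads) moves with these differences, as does 48hpf MG replicate 3, and their part was not tested.

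The differences on the log2 scale were as follows. In the cell cycle they were -2.68 for *RRM2* (ENSDARG00000020711), -6.31 for *ccne1*, -5.86 for *mcm2*, -6.08 for *tyms*, -8.12 for *cdk1*, and -7.08 for *ncaph*. Among regulators they were -6.31 for *atoh7*, -5.15 for *dlc*, -3.12 for *emx2*, -4.24 for *foxc1b*, -9.51 for *sebox*, and -2.75 for *vsx1*. Among matrix genes they were -5.44 for *lum*, -6.56 for *tgfbi*, and -5.22 for *tnn*. For *krt8*, *scinla*, and *hbae3* they were -8.21, -11.58, and -5.43. For the others they were -3.61 for *si:dkey-183i3.5*, -8.03 for *SLC43A3*, -7.39 for *gapdh*, -12.24 for *kcng4b*, -10.65 for *nrn1lb*, and -7.06 for *pmp22a*. Where 60hpf MG had no read, the size depends on the prior count and is no bound.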

How the results depend on the processing

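Percentages in brackets are the share of all genes called in the same setting and direction at an adjusted p under 0.05. With joined columns they are the share of all genes at a 2-fold difference instead. Unadjusted counts stand without such a share. The depth of 60hpf MG and the 48hpf replicate 3 columns limit these results. At 48hpf, where 7 genes were called lower and 4 higher, the lower count was 0 with TMM (2.5%, 39 genes at an unadjusted p under 0.05), 3 with quantile scaling (3.38%), 25 with CPM plus 1 (17.7%), 107 with joined columns (23.2%), and 0 with only the columns compared (0 unadjusted), where no gene of the whole table was called. It was 0 to 26 when a replicate was left out (0.0439 to 40.3%). The higher count was 0 with joined columns (9.48%), 1 with CPM plus 1 (3.71%), 0 with only the columns compared (1 unadjusted), 10 without both replicate 3 columns (9.93%), and 0 to 23 when a replicate was left out (0.460 to 14.9%). TMM moved the median of all genes from -0.46 to -0.00, and the 121 genes stood 1.65 below it (-1.65).

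At 60hpf, joined columns with the floor gave 19 lower (6.68%) and 0 higher calls (2.01%) and a median of 0.00. The higher count was 5 with only the columns compared (6.42%), 5 without both replicate 3 columns (8.77%), and 1 to 6 when a replicate was left out (4.19 to 12.9%). The median was -3.43 with CPM plus 1 and -5.35 with quantile scaling. In C at 60hpf minus 48hpf, the lower count was 70 with joined columns (10.7%), 24 with CPM plus 1 (16%), 96 with only the columns compared (19.6%), 31 with quantile scaling (14.8%), 56 without both replicate 3 columns (22.1%), and 0 to 84 when a replicate was left out (4.02 to 30.4%, with 7 unadjusted calls without replicate 1). The higher count was 14 with only the columns compared (28.6%) and 7 to 17 when a replicate was left out (10.5 to 34.9%), and the median was -1.77 with quantile scaling. Apart from joined columns, which replace the test, the causes were not tested. The rule returned 206 genes at a difference of 1.5 and 38 at 3. It returned 112 genes with TMM, of which 90 are among the 121, 91 with quantile scaling (78 shared), 95 with CPM plus 1 (90 shared), and 119 to 123 when a replicate was left out (109 to 116 shared).

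Signs turned in some genes. At 48hpf, MG minus C ranged over the replicates left out from -1.81 to 0.69 for *RRM2* (ENSDARG00000020711), -1.83 to 0.76 for *RRM2* (ENSDARG00000078069), -1.72 to 0.23 for *fen1*, -5.09 to 0.32 for *mcm2*, -4.39 to 0.35 for *mcm4*, -4.55 to 0.44 for *mcm7*, -3.63 to 0.53 for *rrm1*, -2.95 to 0.66 for *tyms*, -5.76 to 0.65 for *atoh7*, -1.60 to 0.41 for *vsx1*, -3.20 to 0.45 for *krt8*, -4.78 to 0.28 for *col1a1a*, -5.37 to 0.12 for *dcn*, -5.41 to 0.20 for *lum*, -6.01 to 0.43 for *tgfbi*, -4.76 to 0.10 for *pmp22a*, -0.18 to 0.58 for *SLC43A3*, and -2.31 to 0.12 for *nrn1lb*. For all of these but *nrn1lb*, which turned without replicate 1, the turned value is that without replicate 3, and was the same without both replicate 3 columns. At 60hpf it was 0.41 for *atad2*, 0.21 for *pold1*, and 0.05 for *COL2A1* with quantile scaling, and -0.01 to 0.26 for *col5a1* over the replicates left out. In C at 60hpf minus 48hpf, *tyms* was 0.04 and *gapdh* -0.18 without both replicate 3 columns, and *gapdh* -0.25 to 0.76 and *tyms* -0.09 to -0.01 over the replicates left out. The replicate numbers did not pair the samples (correlation of deviations -0.19 to 0.006). With the replicate block, 7 genes were called lower (9.92%) and 4 higher (4.29%) at 48hpf, and 89 (70.7%) and 2 (6.13%) at 60hpf. In C at 60hpf minus 48hpf they were 11 (10.8%) and 9 (19.4%).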
